A study of Homo sapiens with 4 samples.

Results

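The genes described here are 10 components of transforming growth factor-β (TGF-β) and bone morphogenetic protein (BMP) signalling, namely the receptors TGFBR1, TGFBR2, BMPR1A and BMPR2, the transducers SMAD2, SMAD3, SMAD4 and SMAD7, and the nuclear corepressors SKI and SKIL. They were picked by name with earlier results of these data known, and each was looked up by its symbol in the deposited table of YTHDF1-associated windows. Of the 10 genes, 6 had at least 1 listed window and 4 had none. The 6 genes held 36 of the 26819 listed windows, and they stood among 7550 genes with a window in the whole table, 6679 of which were protein-coding.

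YTHDF1 is a cytoplasmic protein that binds N6-methyladenosine (m6A), a methyl mark on adenosines of RNA. In RNA immunoprecipitation sequencing (RIP-seq), the RNA that comes down with a protein is sequenced and set against the RNA of the whole lysate, called the input. The experiment used SNU638, an established human gastric cancer cell line, with 2 biological replicates of IP-YTHDF1 and 2 of Input. Cells of both groups overexpressed YTHDF1, were kept for 24 h without serum and were then exposed to IFN-γ at 10 ng/ml for 24 h, so no group lacked the transgene or the cytokine. Per the methods, the precipitation used an antibody to FLAG, a short peptide tag. An IgG precipitation is named there as well, but no library of it was analysed here.

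Each listed window spans 50 bp of a gene and compares IP-YTHDF1 with Input through a signal value, a p-value and its adjusted form, the q-value. The table gives no value for a single library, so the depth and the spread between replicates are unknown, the signal values below have no error, and no difference between genes could be tested. The signal value is a score whose scale is not stated. The study describes its protein-coding peaks as a union over replicates, so a listed window may have come from a single replicate, and which windows did cannot be told from the table. A gene without a row may be unbound, too weakly expressed or untested, and these cannot be told apart. Of 5 epithelial marker genes, 4 had a listed window (CDH1, which encodes E-cadherin, did not), against 0 of 5 markers of immune, stromal and endothelial cells. A listed window is not a measure of expression.

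TGF-β and BMP ligands bring type II and type I receptors together at the cell surface. The type II receptor phosphorylates the type I receptor, which then phosphorylates receptor-regulated SMADs. These bind SMAD4, enter the nucleus and act on transcription, where SKI and SKIL hold the SMAD complexes back. SMAD7 is induced by the pathway and blocks the type I receptor. In epithelia of the gut, TGF-β restrains proliferation, and in tumours it also dampens T cell responses.

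At gene level, 6 of 10 genes had a window. Across all RefSeq protein-coding genes the share was 31.8% (6370 of 20056), a figure that includes genes SNU638 cells may not express. Because the 10 genes were chosen with earlier results known, the 2 figures are set side by side only as a description. With a q-value of at most 0.001, the same count of 6 genes had a window, beside 21.2% of all protein-coding genes. With Bonferroni correction for every window tested in any listed gene, 3 genes were left (BMPR2, SMAD3 and SKI), and TGFBR2, BMPR1A and SMAD2 were lost. Of the 7550 genes of any type with a listed window, 2862 were left at this limit. Windows were found in both type II receptors (TGFBR2 and BMPR2), in 1 of the 2 type I receptors (BMPR1A), in both receptor-regulated SMADs and in SKI. TGFBR1, SMAD4, SMAD7 and SKIL were not listed, and the RefSeq intervals of these 4 genes held 0 windows of any other gene.

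The order of the 6 genes by their strongest window was BMPR2 (signal value 3.51), SKI (2.54), TGFBR2 (2.42), SMAD3 (2.38), BMPR1A (2.32) and SMAD2 (2.25). The median of the 6 was 2.40, next to 2.23 for the 6679 listed protein-coding genes, whose values ran from 1.94 to 2.56 between the 25th and the 75th percentile. BMPR2 thus lay above that range and the other 5 lay inside it. The table lists at most 9 windows per gene, and the strongest value went with this limit: its median was 2.48 over the 854 protein-coding genes with 9 windows and 2.18 over those with fewer. Of the 3 genes with 9 windows, BMPR2 and SKI lay above 2.48 and SMAD3 below it, and the 3 genes with fewer all lay above 2.18. The steps between neighbours from SKI down to SMAD2 were small, and with no value per replicate it cannot be said which of them differ.

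**Figure D1:**
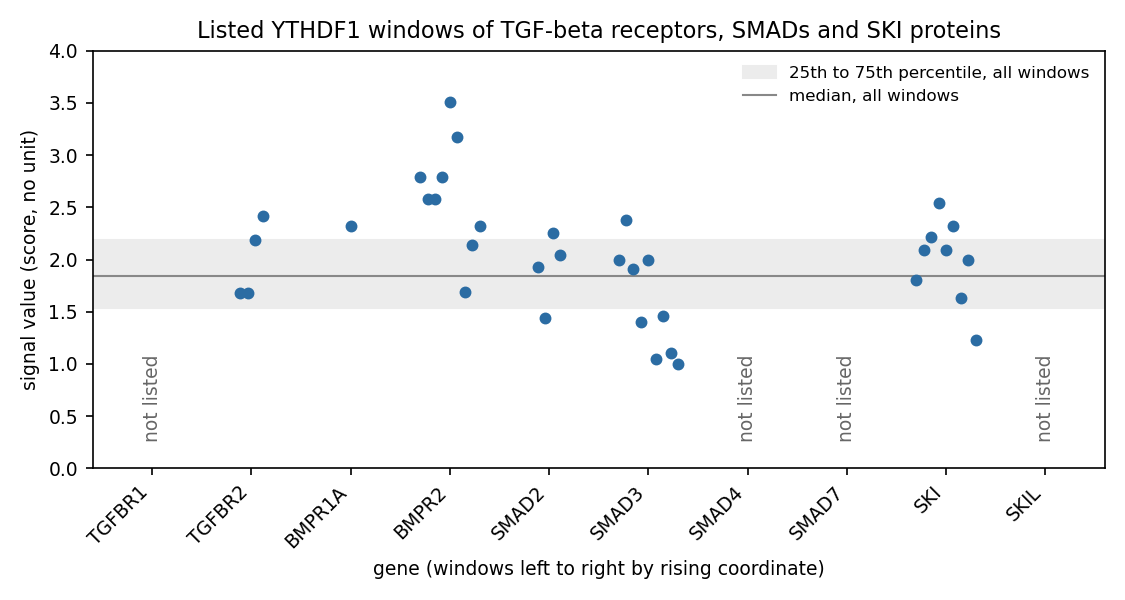
Signal value (a score with no unit, vertical axis) of each listed window of the 10 genes (horizontal axis), with the windows of a gene placed from left to right by rising coordinate. The grey band spans 1.54 to 2.19, the 25th to 75th percentile of all listed windows, and the line marks their median of 1.84. BMPR2 reaches 3.51, SMAD3 has the lowest windows, and 4 genes have none.

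For 2 of the genes a window lay at the start of the RefSeq gene, and the sequence there is shown to place the windows against that start. Both runs are read 5′ to 3′ on the strand of the gene, with bases before the RefSeq start in lower case and bases from the start onward in capitals (RefSeq, GRCh38.p14).
BMPR2, chr2:202376312-202376341, plus strand: actggcagctgcggcGACTCCCCCCTTTGT
SMAD2, chr18:47930858-47930887, minus strand: gcggcccagggtggcAGGCGGGTCTACCCG
The first BMPR2 window began 1 bp after the first RefSeq base and covers 14 of the bases shown. The SMAD2 window covers all 30 bases of its run, so it crosses the RefSeq start and reaches upstream of it. GGAC, the core of the common m6A sequence context, occurred in neither direction in the 50 bases of this SMAD2 window. Among the 416 listed windows whose full sequence was held in the reference table, all of them near gene starts, 23.1% contained GGAC on the RNA strand and 17.5% on the opposite strand.

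BMPR2, the type II receptor for BMPs (ENSG00000204217, plus strand of chromosome 2), carried the strongest windows of the 10 genes. Its 9 listed windows touched one another and formed 1 block of 450 bp, from position 202376328 to 202376777, at the very start of the gene. From the 5′ end, the signal values were 2.79, 2.58, 2.58, 2.79, 3.51, 3.17, 1.69, 2.14 and 2.32. The values therefore peaked in the windows that began 201 and 251 bp into the gene, dropped to their lowest in the next window and recovered partly. The strongest window, at positions 202376528 to 202376577, exceeded 99.2% of all listed windows and held rank 237 in the authors' numbering. It and the window after it had p-values listed as 0. The strongest BMPR2 window also exceeded the strongest window of 98.1% of listed protein-coding genes. The weakest of the 9, with a signal value of 1.69, still had a q-value of 1.59e-05. Every listed window of BMPR2 had a q-value of at most 0.001, as did the single window of BMPR1A, while the other 4 genes each held weaker ones.

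TGFBR2 (ENSG00000163513, plus strand of chromosome 3) is the type II receptor that binds TGF-β itself. Its 4 windows lay far into the gene, 65397 to 67797 bp from the RefSeq start. In genomic distance, introns included, this was about 74.5% to 77.2% of the way along. None of the 4 touched another. The signal values were 1.68, 1.68, 2.19 and 2.42 in order of position, so they rose toward the 3′ side. The strongest, at positions 30674153 to 30674202, had a q-value of 2.05e-05 and exceeded 85.1% of all listed windows. The first 2 windows shared a q-value of 0.04425, close to the limit of 0.05 that all listed windows meet.

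BMPR1A (ENSG00000107779, plus strand of chromosome 10), a type I receptor for BMPs, had a single window. It lay at positions 86756802 to 86756851, 1039 bp from the RefSeq start of a gene of 177082 bp. Its signal value was 2.32 and its q-value 6.3e-05. This window exceeded 80.9% of all listed windows. The value equalled that of the last BMPR2 window. TGFBR1, the type I receptor that works with TGFBR2, had no row.

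SMAD3 (ENSG00000166949, plus strand of chromosome 15) is phosphorylated by the TGF-β type I receptor. Like BMPR2, it had 9 listed windows in 1 block of 450 bp, from position 67065864 to 67066313, which began 262 bp from the RefSeq start. The length and the 3′ end of both blocks are set by the limit of 9 listed windows, so either may extend further. The signal values, from the 5′ end, were 2.00, 2.38, 1.91, 1.40, 2.00, 1.05, 1.46, 1.10 and 1.00. They fell along the block, with the highest value in the second window and the lowest in the last. The median of the 9 was 1.46, against 2.58 for the 9 windows of BMPR2 and 1.84 for all listed windows. The last SMAD3 window exceeded only 2.65% of all listed windows. In SMAD3, as in BMPR2 and SKI, the order by signal value and the order by p-value differed. The window with the smallest p-value, 1.05e-11, was the fifth, with a signal value of 2.00, whereas the strongest window had a p-value of 1.39e-08.

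SMAD2 (ENSG00000175387, minus strand of chromosome 18), the close relative of SMAD3, had a different layout. A block of 3 touching windows lay 34115 to 34215 bp from the RefSeq start, and a single window lay at the start itself, at -35 bp. In the 5′ to 3′ direction, the signal values were 2.04 at the start and then 2.25, 1.44 and 1.93 in the block. The window of 2.25, at positions 47896708 to 47896757, had a q-value of 4.96e-06. The middle window of the block, at 1.44, had a q-value of 0.03713, so the block was strongest at its edges. Neither SMAD4, the partner shared by all receptor-regulated SMADs, nor SMAD7, the inhibitor, had a row.

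SKI (ENSG00000157933, plus strand of chromosome 1), a corepressor that binds SMAD complexes, had 9 windows in 4 separate regions within 800 bp. From the 5′ end, the signal values were 1.80 at 251 bp from the RefSeq start, then 2.09, 2.22, 2.54, 2.09 and 2.32 in a block of 250 bp, then 1.63 and 2.00, and finally 1.23 at 1001 bp. The values were highest in the middle of the block and lowest in the last window. The strongest window, at positions 2228820 to 2228869, had a q-value of 2.38e-11 and exceeded 89.0% of all listed windows. SKIL, also called SnoN, the related corepressor, had no row.

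**Figure D2:**
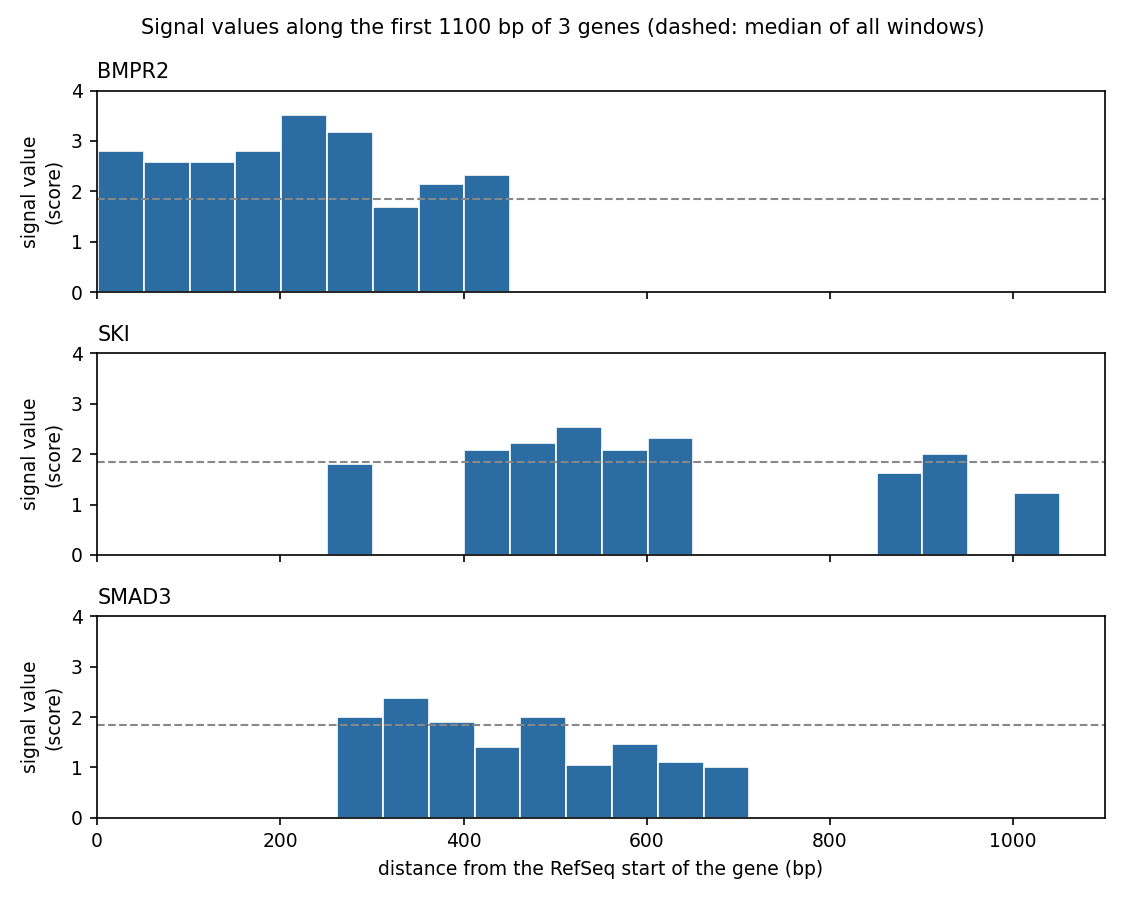
Signal value (score, vertical axes) of each listed 50 bp window of BMPR2, SKI and SMAD3 against its distance from the RefSeq start of the gene in bp (horizontal axis). Each bar is 1 window, gaps are positions without a listed window, and the dashed line is the median of all listed windows, 1.84. The BMPR2 block starts at the gene start and peaks at 3.51, the listed SMAD3 block falls from 2.38 to 1.00, and the listed SKI windows form 4 regions. At most 9 windows are listed per gene, so further windows on the 3′ side may be missing.

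Most of the listed windows of the 6 genes lay close to gene starts. A window within 1000 bp of the RefSeq start was listed in 4 of the 6 genes (BMPR2, SKI, SMAD3 and SMAD2), and 27 of the 36 windows lay there. Nearly all of these windows belonged to BMPR2, SKI and SMAD3, whose lists stop at 9 windows. In TGFBR2, SMAD2 and BMPR1A, which had fewer than 9 windows, only the SMAD2 window at the start lay there. Across listed protein-coding genes, 49.3% had a window within this distance, and the share of all listed windows was not computed. BMPR1A fell just outside, at 1039 bp. Of the 6 genes, only TGFBR2 had every listed window in the 3′ portion of its genomic interval. These distances are genomic and include introns. The exons and untranslated regions behind these positions were not analysed here, so the distances do not place a window along the transcript. Overlap with listed windows of other genes was found for 0 of the 36 windows on either strand.

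**Figure D3:**
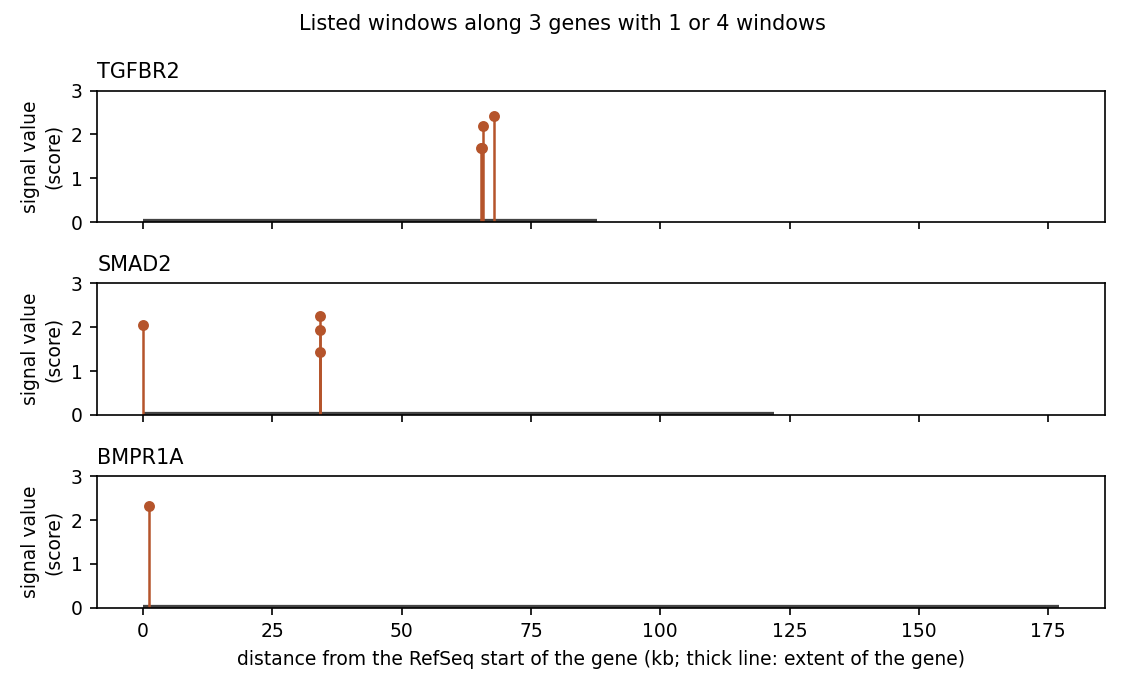
Signal value (score, vertical axes) of the listed windows of TGFBR2, SMAD2 and BMPR1A against the distance from the RefSeq start in kb (horizontal axis). Each point with its line is 1 window and the thick line at the bottom is the extent of the gene. The TGFBR2 windows gather between 65397 and 67797 bp, SMAD2 has 1 window at its start and 3 from 34115 bp, and BMPR1A has 1 window at 1039 bp.

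The listed counts have a ceiling, which bears on BMPR2, SMAD3 and SKI. Windows are numbered within each gene by rising coordinate and no number above 9 occurs, and these 3 genes had 9 each. Among listed protein-coding genes, 12.8% had 9 windows. The 9 windows of BMPR2 and of SMAD3 formed 1 block each, which was so for 1.29% of protein-coding genes with 9 windows (11 of 854). All 3 genes are on the plus strand, where the lowest coordinates are the 5′ end. Of 405 plus-strand protein-coding genes with 9 windows, 67.2% had a window within 1000 bp of the start, compared with 40.6% of 409 such genes on the minus strand. With fewer than 9 windows, the shares were 48.4% on the plus strand and 48.8% on the minus strand. The positions near the start in BMPR2, SMAD3 and SKI and this numbering therefore cannot be told apart. The same holds for the length and the 3′ end of their listed blocks.

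How many windows were tested in a gene, and how many passed, could be computed from the q-values. The q-values behave as if they were adjusted within each gene by the Benjamini-Hochberg procedure, in which q equals p times the number of windows tested, divided by the place of the window in the order of p-values. BMPR2 then had 111 tested windows, SKI 104 and SMAD3 183, against 48 in BMPR1A, 31 in TGFBR2 and 30 in SMAD2. These are the smallest numbers that fitted. The median over listed protein-coding genes was 36. The places showed that at least 15 BMPR2 windows had passed, 6 more than were listed. In SKI and in SMAD3 at least 14 had passed, 5 more than listed in each. In TGFBR2, SMAD2 and BMPR1A the places ran without a gap at these smallest numbers. A larger number could fit as well and would leave gaps. With 1 listed window, as in BMPR1A, no gap could appear. Whether a window was missing ahead of the last listed one therefore cannot be told for these genes. A window that passed with a larger p-value would leave no gap and cannot be seen this way. Skipped places were found in 667 of the 854 protein-coding genes with 9 windows and in 1 of 6597 genes of any type with fewer. Taking the smallest number that fits favours places without a gap where few windows are listed. The second count is therefore partly set in advance.

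Some of the unlisted windows had smaller p-values than most listed windows of the same gene. In SKI the listed window with the smallest p-value, 4.58e-13, held place 2, so 1 unlisted SKI window had a p-value no larger than that. In BMPR2, 2 windows had p-values listed as 0 and the next listed window, with a p-value of 5.75e-13, held place 6, so 3 unlisted windows came before it. In SMAD3 the first 4 places were all listed, again at the smallest number that fitted. The strongest signal values of BMPR2, SKI and SMAD3 are thus lower limits for these genes.

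**Figure D4:**
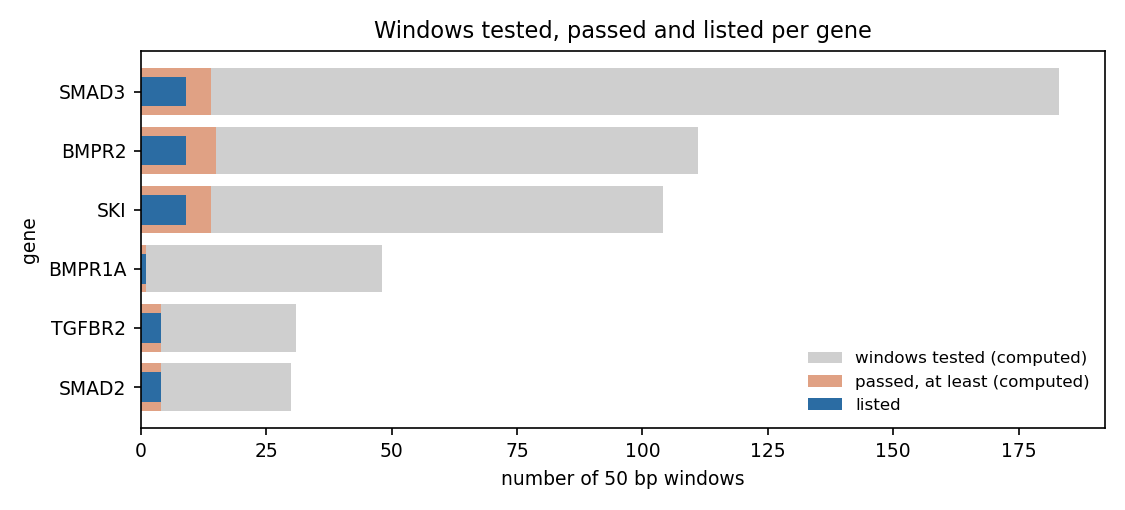
Number of 50 bp windows (horizontal axis) tested (grey), passed (orange, a lower limit) and listed (blue) for each of the 6 genes with a listed window (vertical axis). Tested and passed windows were computed from the p-values and q-values. SMAD3 has 183 tested windows, BMPR2 111 and SKI 104, and in these 3 genes the orange bar reaches beyond the 9 listed windows.

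As a share of the tested windows, at least 13.5% passed in BMPR2, at least 13.5% in SKI and at least 7.65% in SMAD3. The listed windows made up 13.3% of those tested in SMAD2, 12.9% in TGFBR2 and 2.08% in BMPR1A. The median listed share over the 5792 protein-coding genes with fewer than 9 windows was 8.33%. BMPR1A thus had the lowest listed share of the 6 genes, although its 1 window was as strong as windows of BMPR2 and SKI that also had a signal value of 2.32.

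The 10 genes belong to families whose other members were looked up as well. This grouping was made after the values had been seen. Of the 5 receptor-regulated SMADs, 4 had a window (SMAD1, SMAD2, SMAD3 and SMAD5, with SMAD9 not listed), and their strongest signal values ran from 2.25 to 2.64. Of the 3 common and inhibitory SMADs, SMAD4, SMAD6 and SMAD7, 0 had a window. Among the 7 type I receptors, BMPR1A, ACVR1 and ACVR1B had a window, and among the 5 type II receptors, TGFBR2, BMPR2 and ACVR2A did. Beside the 31.8% of all protein-coding genes with a window, these families are too small for their counts to set one class apart from another.

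SMAD1 and SMAD5 carry BMP signals. SMAD1 had its strongest window, with a signal value of 2.49, at 33825 bp from the RefSeq start, and its other windows had 1.51, 1.47 and 1.33. SMAD1 had no listed window near its start. SMAD5, which like SMAD3 had 9 listed windows, had 1 window at 51 bp with 1.98 and its strongest, with 2.64, at 20901 bp. In SMAD2 the strongest window, with 2.25, lay at 34115 bp. By genomic distance, introns included, the strongest listed window of each of these 3 genes thus lay far from the start. That of SMAD3 lay at 312 bp. For SMAD3 and SMAD5 this holds among listed windows, since further windows of genes with 9 may be missing. Where these windows lie along the transcript was not analysed.

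Around the 10 genes, 80 further genes of the TGF-β and BMP pathway were counted, of which 43 had a window and 37 had none. The share of 53.8% is given beside the 31.8% of all protein-coding genes as a description. The median of their strongest signal values was 2.21, close to the 2.23 of all listed protein-coding genes. In the roles that act outside the cell or at its surface, windows were listed for 7 of 15 ligand and latency genes, 2 of 7 extracellular inhibitors and 3 of 11 other receptors and co-receptors. Inside the cell, they were listed for 2 of 4 other SMADs, 11 of 16 regulators of receptors and SMADs, 8 of 12 nuclear partners and 10 of 15 commonly induced targets.

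**Figure D5:**
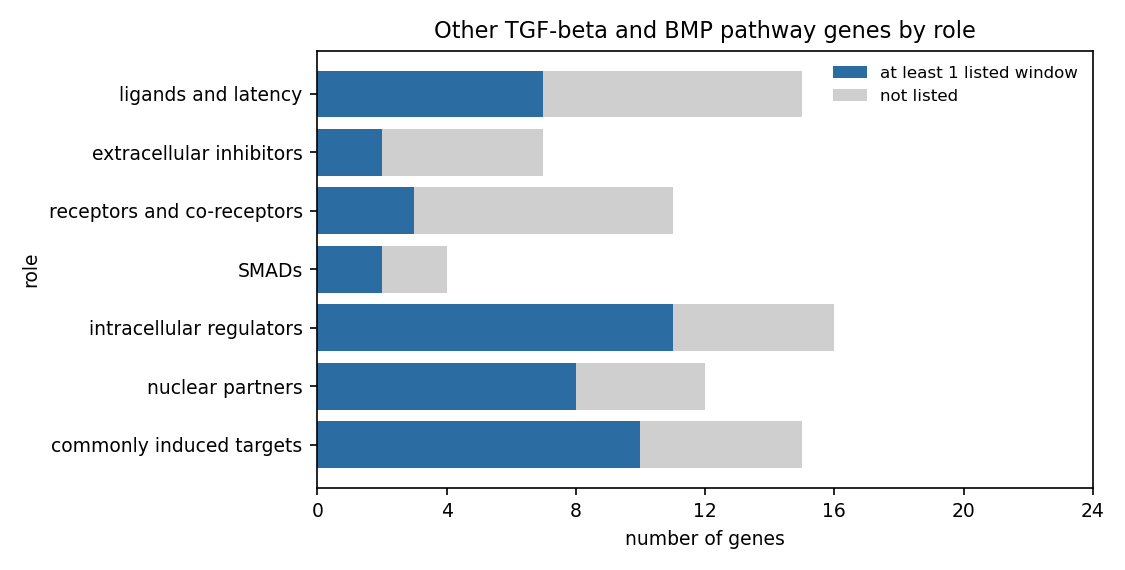
Number of genes (horizontal axis) of 80 further TGF-β and BMP pathway genes, by role (vertical axis), with at least 1 listed window (blue) and without (grey). Intracellular regulators have windows in 11 of 16 genes, nuclear partners in 8 of 12, and other receptors and co-receptors in 3 of 11.

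Among ligands, the strongest windows were in TGFB2 (3.29), INHBA, which encodes an activin subunit (2.93), and BMP4 (2.49). TGFB1 reached 2.21 with 9 listed windows, and TGFB3 was not listed. FSTL3 (2.23) and FST (2.07), which bind and neutralise activins, were the extracellular inhibitors with windows. Among receptors outside the 10 genes, ACVR1B, an activin type I receptor, had 2.44, and ACVR1 and ACVR2A had 1.88 each. None of these receptors came near BMPR2.

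Of the regulators inside the cell, SMURF2, a ubiquitin ligase that targets SMADs and receptors, had the strongest window (3.34), and this was also the highest value of all 80 genes. USP9X, a deubiquitinase that acts on SMAD4, had 2.93, and ZFYVE9, also called SARA, which presents SMAD2 and SMAD3 to the receptor, had 2.89. Among nuclear partners, TGIF1, a SMAD corepressor, had 2.77, and the coactivators CREBBP and EP300 had 2.53 and 2.46. CDKN2B (3.13), a cell cycle inhibitor, led the commonly induced targets, followed by JUNB (2.31) and CDKN1A (2.17). The lowest value among the targets was that of ID1 (1.09), a widely used readout of BMP activity.

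Among listed windows, BMPR2 had a higher value than any of these 80 genes, 3.51 against 3.34 for SMURF2. Of the 80 genes, 9 had 9 listed windows, TGFB2 and USP9X among them, and their strongest values are lower limits too, so this order may not hold over all windows. The other 5 genes, between 2.25 and 2.54, lay above the median of 2.21 of the 43 pathway genes with a window. None of these values comes with an error, because each value is a single number for the whole experiment.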

How the data were processed

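RIP-seq libraries of IP-YTHDF1 and Input (2 biological replicates each) were made with a stranded, ribosomal RNA-depleted kit. The submitters' processing notes name STAR 2.7.3a and GRCh38. The peak caller and the filters are not given in the sources used here. A figure legend of the study speaks of protein-coding peaks as a union over replicates, and the table does not say which replicate a window came from. The authors deposited 1 table of 26820 rows (1 repeat was dropped), with a signal value and a rank per window, treated here as scores of unstated scale. Also deposited were a p-value and a q-value per window, used as the authors gave them. There were 0 columns of values per library.

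Rows were matched by symbol. Starts were turned into positions counted from 1. Distances used RefSeq gene intervals of GRCh38.p14, which held 97.3% of the windows compared. Tested windows were the smallest number for which at least 75% of usable q-values gave whole places (tolerance 1%, p-values above 1e-13), a step tested on simulated data. RefSeq sequence came from a table of gene starts. All gene lists and the 10 genes were chosen with earlier results of these data known. The text names all 10 genes and, per role of the pathway list, the 3 genes with the strongest windows. In addition, TGFB1, TGFB3, ID1 and the windows of SMAD1 and SMAD5 were chosen after their values were seen. Alternatives were stricter thresholds, joined windows, other summaries and leaving out overlapping windows. Python 3.11.15, pandas 2.3.3, NumPy 2.4.6 and matplotlib 3.10.9 were used.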

Additional observations from a re-analysis of the deposited data

How the results depend on the processing

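No paired analysis was possible because replicates 1 and 2 have no columns of their own, and for the same reason no replicate could be left out. The counts of 6 genes, 36 windows and 43 pathway genes moved by less than 1.5 times at a q-value of at most 0.001 and when q-values were adjusted over the windows of all listed genes, and leaving out windows that overlap another gene changed none of them. The median of the strongest values was 2.40 in each of these. A Bonferroni limit over the at least 319677 windows of all listed genes left 3 of the 10 genes (8 windows in BMPR2, 3 in SMAD3 and 2 in SKI, 13 in all), a median of 2.54 and 20 pathway genes. TGFBR2, BMPR1A and SMAD2 did not pass it. Over all listed genes, this limit left 4953 of the 26819 windows and 2862 of the 7550 genes. At a signal value of at least 2, 22 windows in all 6 genes and 28 pathway genes were left. Joining touching windows gave 13 regions. The median was 1.99 with the mean value per gene and 2.32 without the genes that have 9 windows. The planned share of windows with GGAC was computed only for the 416 listed windows near gene starts whose sequence was held. The sequence of the whole genome was not used here, so only 1 full window of the 10 genes could be read. The alternatives planned for this share were not run.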
